A study of Mus musculus with 2 samples.

Results

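The genes described here make, package, take up and break down the inhibitory transmitter gamma-aminobutyric acid (GABA). They are Gad1, Gad2, Slc32a1, Slc6a11 and Abat, 5 of 21938 protein-coding genes. They were chosen by name for their roles, with earlier results of these data known. For each of them, DNase I-hypersensitive sites were collected over the gene body extended by 10 kb at both ends, called its domain here, and within 500 bp of its annotated transcription start sites (TSSs). DNase-seq cuts nuclei with the nuclease DNase I and sequences the released ends, so that a peak marks DNA lying open in some of the cells. The tissue was midbrain of healthy newborn B6NCrl mice at day 0, pooled from males and females, and there was 1 group with 2 biological replicates. The samples used here hold no second tissue, age or treatment, so the data describe these genes in a single state and allow no comparison between conditions. Both libraries trace to a single donor entry of the strain, the protocol document named in the labels is one for nuclei of cultured cells with a crosslinking step, and no label states that separate animals were used. Differences between the libraries may therefore be technical.

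In neurons, glutamate decarboxylase converts glutamate to GABA, and the vesicular transporter then loads GABA into synaptic vesicles. Released GABA is cleared by plasma membrane transporters of neurons and astrocytes, and GABA transaminase in mitochondria starts its breakdown towards succinate. In the midbrain, GABAergic neurons lie beside dopaminergic, glutamatergic and other cells. Whole tissue may therefore hold these genes in an active state in only a share of its cells, which was not measured here. A weak site in such tissue can be open in few cells or be cut less often in each, and these cannot be told apart here.

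The list of replicate 1 held 228203 usable peaks of 150 bp and that of replicate 2 held 122593. The number of reads behind them is unknown. The authors gave each peak a whole-number signal, which the sources used here do not define. It was not scaled between the libraries, so it is read only within a list, where its median was 44 in replicate 1 and 18 in replicate 2. Peaks of both libraries that overlapped or touched were merged, and a merged region holding a peak of each library, with at least 1 bp of overlap, is called shared. There were 74833 shared regions among 260777. Cell type markers were looked up at promoters, beside the 61.0% of all protein-coding genes with a shared promoter region. All 7 pan-neuronal markers had one, as did 7 of 10 GABAergic neuron markers. The latter list also holds Gad1, Gad2 and Slc32a1, and without them the count was 5 of 7. It was 4 of 7 for astrocyte, 3 of 6 for oligodendrocyte, 1 of 5 for endothelial, 0 of 5 for microglial and 0 of 4 for liver markers. The GABAergic, astrocyte and oligodendrocyte shares were not far from that of all genes. These lists were not made to tell midbrain from other neural tissue, so that part of the label was not checked. The part that the mix of cell types plays in the results below was not tested.

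All 5 genes had open chromatin in both libraries, but at 2 of them, Slc32a1 and Slc6a11, the promoter peaks did not coincide between libraries. Within 500 bp of an own TSS, replicate 1 had a peak at 5 of 5 genes, against 68.9% of all protein-coding genes. Replicate 2 had one at 4 of 5, against 62.6%, and the gene without it was Slc32a1. A shared promoter region was present at 3 of 5, Gad1, Gad2 and Abat, against 61.0% of all genes, so that the share among the members was close to the background. With hotspots, the authors' wider intervals of raised cutting, the shared count was 4 of 5, with Slc6a11 added, against 62.1%. Slc6a11 was 1 of the 0.843% of genes with a promoter peak in each library but no overlap between them, and Slc32a1 was 1 of the 7.03% with a promoter peak in replicate 1 alone. At least 1 shared distal region, meaning over 500 bp from any annotated TSS, lay in the domain of 5 of 5 genes, against 61.7%.

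**Figure D1:**
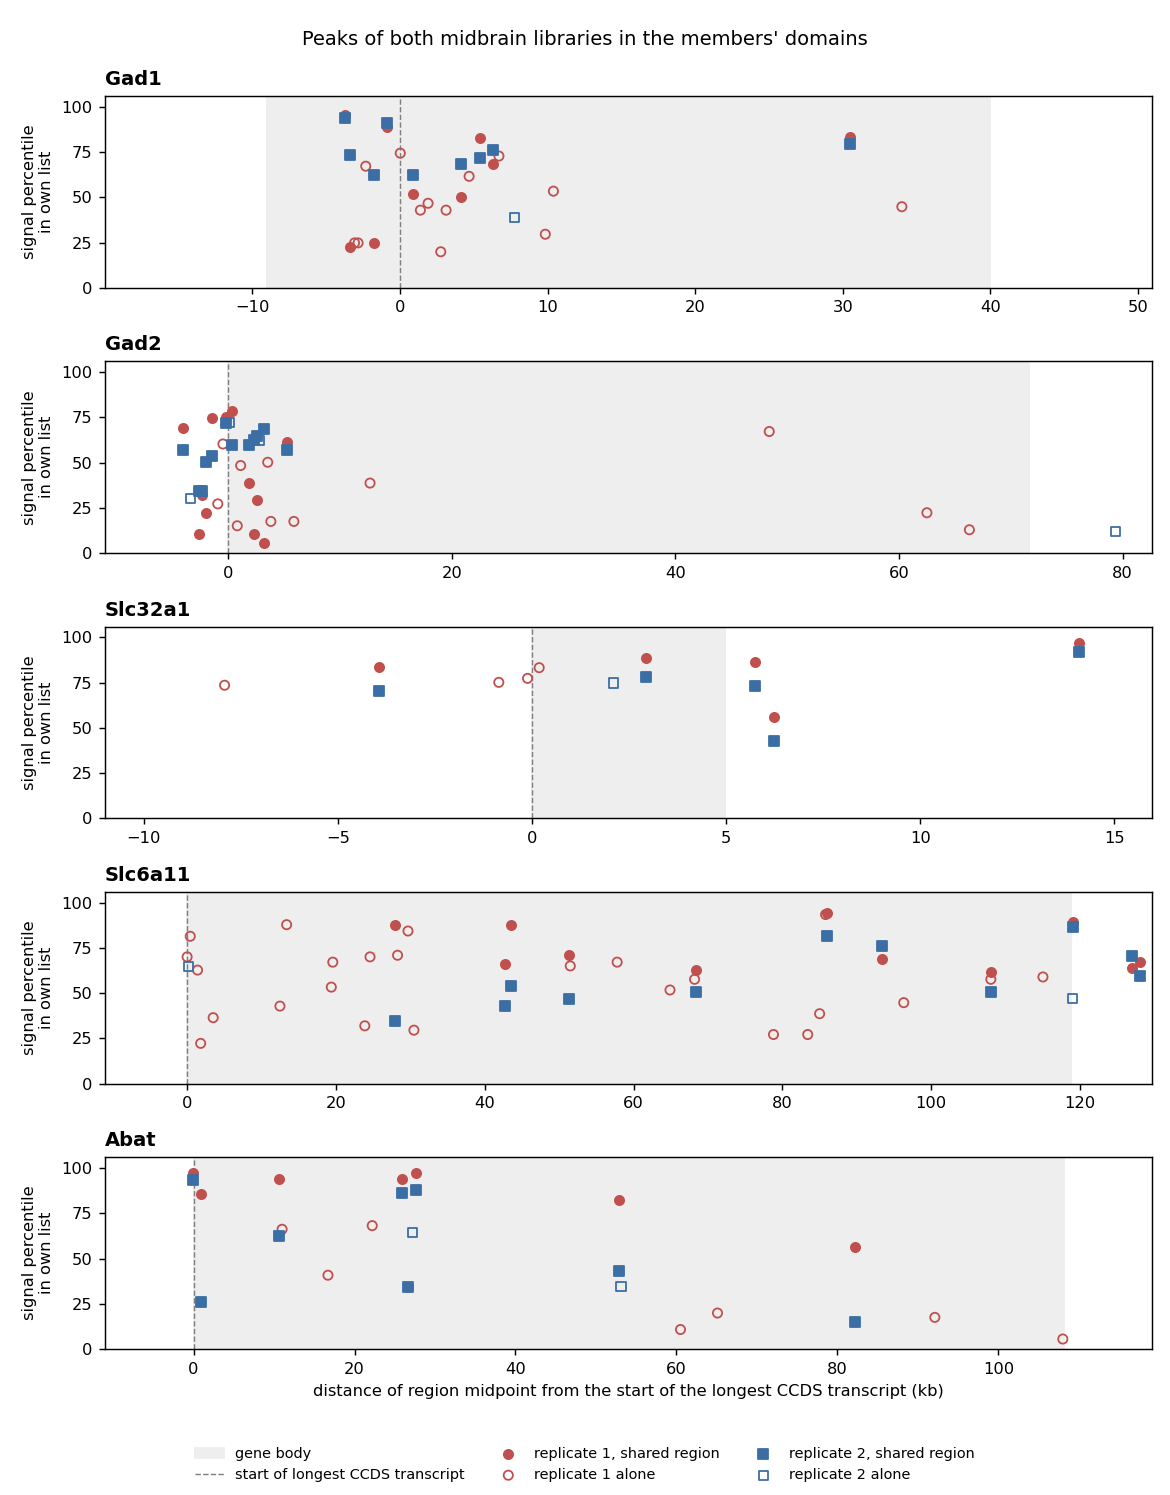
Peaks in the domain of each gene, with the distance of the region midpoint from the start of the longest CCDS transcript (kb) on the x axis and the rank percentile of the highest signal within that library's own list on the y axis. Circles are replicate 1, squares replicate 2, and filled symbols mark shared regions; the filled symbols of Gad1 and Gad2 crowd around the start, while the first one of Slc6a11 lies at 27.9 kb.

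Gad1 encodes the larger of the glutamate decarboxylases, which serves much of the basal production of GABA. It lies on chromosome 2 at 70553072-70602014 on the + strand (GENCODE M21, mm10), with 7 annotated TSSs. Distances below are counted from the start of its longest CCDS transcript at 70562042, called the main start. Its domain held 24 peaks of replicate 1 and 10 of replicate 2, which formed 9 shared regions, 13 regions of replicate 1 alone and 1 of replicate 2 alone. Of the replicate 2 peaks, 90.0% overlapped a replicate 1 peak, and in the other direction 41.7% did. Over the whole lists these shares were 64.6% and 33.5%, which also stand beside the shares of the genes below.

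The highest signals at Gad1 were not at the start but just upstream of it. The region chr2:70558236-70558405, at −3.72 kb, had a signal of 113 in replicate 1 and 56 in replicate 2 and stood at rank percentiles of 95.7 and 93.8 within those lists. The next was chr2:70561116-70561265 at −0.851 kb, with 89 and 49, at percentiles of 88.8 and 90.8. In each library these held the highest and the next highest signal of the whole Gad1 domain. Their sequences are shown because each holds the letters GCCNNCTNNTGG, a core of the motif of the zinc-finger protein CTCF. This motif was searched on both strands of the 150 bp about each region's midpoint, and it was added to the search after the sequences had been seen. Of the 39 shared distal regions of the 5 genes, 3 held it (7.69%), against 16.4% of all 50993 shared distal regions. Sequences here are the + strand of RefSeq's GRCm38.p6 (mm10), 5′ to 3′, and capitals mark every match of the motifs searched, which for the first of them includes an E-box, CAGCTG.
Gad1 chr2:70558236-70558405: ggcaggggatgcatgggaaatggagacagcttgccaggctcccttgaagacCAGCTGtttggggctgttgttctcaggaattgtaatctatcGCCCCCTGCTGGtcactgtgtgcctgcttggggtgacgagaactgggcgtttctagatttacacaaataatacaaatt
Gad1 chr2:70561116-70561265: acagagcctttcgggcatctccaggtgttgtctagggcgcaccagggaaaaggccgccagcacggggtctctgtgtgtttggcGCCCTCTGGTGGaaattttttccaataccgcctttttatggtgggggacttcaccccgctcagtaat

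At the main start itself only replicate 1 had a peak, chr2:70561996-70562145, with a signal of 65, and the nearest replicate 2 peak lay 730 bp away. Replicate 1 also had a hotspot there, 615 bp wide with a −log10 q of 4.77, which no replicate 2 hotspot overlapped. The annotated 5′ end of the gene, at 70553072, had no peak in either library. The shared promoter regions of Gad1 were at other annotated starts. One lay at chr2:70562776-70563025, at 0.859 kb in intron 1 of the main transcript, where an alternative Gad1 transcript and the antisense gene Gad1os begin. Its signals were 45 and 22, and the peaks of both libraries shared 50 bp. DNase cuts carry no strand, so Gad1 and Gad1os cannot be told apart at this site. The other lay in intron 2 at 4.11 kb (44 and 25), near the start of a processed transcript, with 30 bp in common. Near these starts replicate 1 alone had further regions at 1.39 kb (40), 1.91 kb (42) and 4.69 kb (52). Neither shared overlap reached 50% of the peak width. Under that stricter rule, or with the annotated 5′ end as the only start, Gad1 no longer had a shared promoter region and the count fell to 2 of 5.

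Farther in, Gad1 had shared regions in intron 3 at 5.46 kb (77 and 27) and 6.28 kb (58 and 30). A further one lay alone in intron 12 at 30.5 kb (78 and 33), within a hotspot of the strongest q class in each library. Upstream, a pair at −3.36 kb (31 and 28) and −1.77 kb (32 and 22) ranked low in replicate 1, at percentiles of 22.3 and 24.8, and higher in replicate 2, at 73.4 and 62.3.

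Gad2 encodes the smaller decarboxylase, concentrated at nerve terminals. It lies on chromosome 2 at 22622205-22693874 on the + strand, with 2 annotated TSSs and its main start at the 5′ end. Its domain held 23 peaks of replicate 1 and 19 of replicate 2. They formed 12 shared regions, 11 of replicate 1 alone and 4 of replicate 2 alone. The overlap was 52.2% of the replicate 1 peaks and 73.7% of the replicate 2 peaks.

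All 12 shared regions of Gad2 lay between −4.06 and 5.25 kb of the start, and the rest of its long gene body had none. At the promoter, the region at −0.164 kb (chr2:22621936-22622145) had signals of 66 and 27 with 90 bp in common. The region in the 5′ UTR at 0.346 kb had 71 and 21 with 110 bp in common. Between them, at 0.106 kb, stood a replicate 2 peak (27) that missed the nearest replicate 1 peak by 90 bp. Replicate 1 alone had promoter regions at −0.454 kb (51), 0.826 kb (28) and 1.13 kb (43). In replicate 1 a hotspot of 1445 bp, the widest in the domain, covered both shared promoter regions, and the regions at 0.826 and 1.13 kb ran past its end or lay outside it.

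Upstream of Gad2 were 5 further shared regions, at −4.06 kb (59 and 20), −2.56 kb (26 and 14), −2.3 kb (35 and 14), −2.0 kb (31 and 18) and −1.46 kb (65 and 19). Downstream were another 5, at 1.92 kb (38 and 21) and 2.35 kb (26 and 22) in intron 3, at 2.57 kb in the coding part of exon 4 (34 and 23), and at 3.2 kb (23 and 25) and 5.25 kb (52 and 20) in intron 4. Of these 10, 7 had a replicate 1 signal below 44, the median of that list. The region at 3.2 kb stood at percentile 5.54 of replicate 1, though at 68.6 of replicate 2. By the product of the ranks in both lists, the leading distal regions were those at −1.46, −4.06 and 5.25 kb. The one at −1.46 kb is printed because it is the leading distal site of the cluster. It holds the E-box CAGCTG in a pair of places and a GC box, GGGCGG.
Gad2 chr2:22620636-22620845: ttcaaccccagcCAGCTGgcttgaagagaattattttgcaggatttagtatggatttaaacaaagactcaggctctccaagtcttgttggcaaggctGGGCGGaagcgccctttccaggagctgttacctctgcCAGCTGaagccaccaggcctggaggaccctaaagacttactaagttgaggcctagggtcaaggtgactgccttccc

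With all peaks and an overlap of at least 1 bp, the crowding of shared regions near the starts of both decarboxylase genes was high among all genes. These measures were chosen after the values had been seen and carry no test. Within 5 kb of the main start, Gad2 had 11 shared regions, a count reached by 12 genes of 21938 (0.0547%), and Gad1 had 6, reached by 353 (1.61%). The most shared regions in any 10 kb of the domain were 12 at Gad2, reached by 14 genes (0.0638%), and 7 at Gad1, reached by 416 (1.9%). Slc32a1, Slc6a11 and Abat reached 3, as did 37.0% of all genes. The Gad2 count rests partly on low signals: near its start 4 regions were left with the stronger 50% of each list, 4 with replicate 1 shortened to the length of replicate 2, 8 with an overlap of 50% and 5 with hotspots in place of peaks. For Gad1 the same settings gave 4, 4, 3 and 6. How many of all genes reach these counts under the same settings was not counted, so whether the crowding stays high there is not known.

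**Figure D2:**
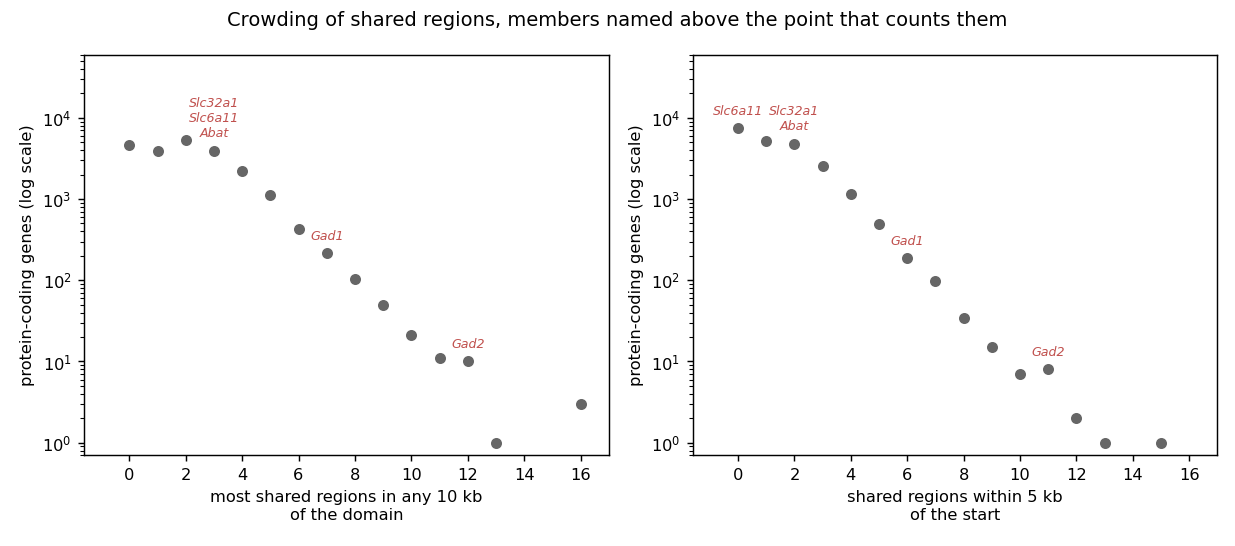
The number of protein-coding genes (log scale) by the most shared regions in any 10 kb of their domain (left) and by the shared regions within 5 kb of their main start (right), with the 5 genes named above the point that counts them. Gad2 stands at 12 and 11 and Gad1 at 7 and 6, while the other three sit among the bulk of genes.

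Slc32a1 encodes the vesicular GABA transporter, which also loads glycine. It is a short gene on chromosome 2 at 158610767-158615748 on the + strand with 1 annotated TSS. Its domain held 9 peaks of replicate 1 and 6 of replicate 2, which formed 5 shared regions, 4 of replicate 1 alone and 1 of replicate 2 alone. At the promoter replicate 1 had 2 peaks, centred −116 bp (69) and 184 bp (78) from the start. The nearest replicate 2 peak (29) lay in intron 1, 1770 bp from the second of them. The non-coding gene Gm14204 also starts within 500 bp of both replicate 1 peaks.

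The shared regions of Slc32a1 lay on both sides of the gene and inside it. Signals were 79 and 26 at −3.93 kb, 89 and 32 in intron 1 at 2.94 kb, and, past the 3′ end, 84 and 28 at 5.75 kb and 48 and 16 at 6.22 kb. The highest of the domain, 122 and 51 at 14.1 kb, lay at the promoter of the neighbour Actr5, an actin-related chromatin remodelling subunit, and is not counted among the distal sites of Slc32a1. The intron 1 region is printed as the highest shared site within the gene, and it holds 1 E-box CAGCTG.
Slc32a1 chr2:158613616-158613805: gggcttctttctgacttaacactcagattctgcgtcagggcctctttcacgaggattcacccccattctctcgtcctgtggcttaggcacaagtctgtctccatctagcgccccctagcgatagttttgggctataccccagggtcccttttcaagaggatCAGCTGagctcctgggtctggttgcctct

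Slc6a11 encodes a plasma membrane GABA transporter found mainly on astrocytes. It spans chromosome 6 at 114131241-114249952 on the + strand, the longest of the 5 genes, with 2 annotated TSSs. Its domain held 37 peaks of replicate 1 and 16 of replicate 2. They formed 11 shared regions, 25 of replicate 1 alone and 2 of replicate 2 alone. Of the replicate 1 peaks, 32.4% overlapped a replicate 2 peak, the lowest share of the 5 genes but close to the 33.5% of the whole list. Of the replicate 2 peaks, 87.5% overlapped one of replicate 1, against 64.6% of the whole list.

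No shared region of Slc6a11 lay within 5 kb of its start. Replicate 1 had promoter peaks at 0.03 kb (60) and 0.45 kb (75), and replicate 2 had one at 0.19 kb (23), in exon 1. The replicate 2 peak stood between the others, 10 bp from the first and 110 bp from the second. The hotspots of both libraries, which are wider than the peaks, did overlap there.

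All 11 shared regions of Slc6a11 were distal, 8 in introns and 3 past the 3′ end. The highest in replicate 1 was in intron 6 at 86.0 kb, chr6:114217196-114217385, with 107 and 35. Replicate 1 had a further peak of 103 beside it, at 85.8 kb, that replicate 2 lacked. By the product of ranks the region at 119 kb, just past the gene, came first, with 91 and 42, the latter the highest of the domain in replicate 2. After these came the region at 93.4 kb in intron 6 (59 and 30). Past the gene there were also regions at 127 kb (54 and 26) and 128 kb (57 and 21). Signals of the remaining intronic regions were 86 and 14 at 27.9 kb, 56 and 16 at 42.8 kb and 87 and 19 at 43.6 kb. Farther in they were 61 and 17 at 51.3 kb, 53 and 18 at 68.4 kb (also intron 6) and 52 and 18 at 108 kb. Of these, the regions at 27.9 and 43.6 kb stood at percentiles of 87.5 and 87.9 in replicate 1 but of only 34.5 and 53.9 in replicate 2. The E-box CAGCTG stood in the central 150 bp of 7 of the 11. The region at 86.0 kb is printed for its replicate 1 signal. It holds the homeodomain core TAATTA and an E-box that runs past the central 150 bp and is not among those 7.
Slc6a11 chr6:114217196-114217385: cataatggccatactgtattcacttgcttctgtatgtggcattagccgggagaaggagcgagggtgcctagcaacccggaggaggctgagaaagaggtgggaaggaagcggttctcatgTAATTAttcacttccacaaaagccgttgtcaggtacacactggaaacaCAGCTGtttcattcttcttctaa

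Abat encodes GABA transaminase, the enzyme that starts the breakdown of GABA in neurons and astrocytes and is also made outside the brain. It lies on chromosome 16 at 8513429-8621568 on the + strand, with 7 annotated TSSs. Its domain held 15 peaks of replicate 1 and 12 of replicate 2. They formed 8 shared regions, 7 of replicate 1 alone and 2 of replicate 2 alone. The overlap was 53.3% of the replicate 1 peaks and 83.3% of the replicate 2 peaks.

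Abat had the strongest promoter of the 5 genes. Both libraries placed a peak on the same 150 bp, chr16:8513296-8513445, with signals of 123 and 55, at percentiles of 97.4 and 93.4. The part of it upstream of the start is printed because it is the single promoter interval that the libraries share exactly. It holds the GC box GGGCGG on each strand.
Abat chr16:8513296-8513428: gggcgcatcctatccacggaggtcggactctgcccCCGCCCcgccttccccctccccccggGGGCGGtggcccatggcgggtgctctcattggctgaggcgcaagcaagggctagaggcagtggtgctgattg

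The other shared regions of Abat were mostly in its long intron 1. The highest was at 27.6 kb, chr16:8540956-8541125, with 124 and 44, followed by 25.9 kb (105 and 41) and 10.6 kb (105 and 22). Weaker ones lay at 0.952 kb (82 and 12), 26.7 kb (36 and 14) and 52.9 kb (76 and 16), and in intron 6 at 82.2 kb (48 and 9). The region at 26.7 kb was the only 1 of the 45 shared regions of the 5 genes outside a shared hotspot. The region at 25.9 kb holds GTTGCCAT, part of the motif of RFX factors, on each strand, in overlapping copies. The leading intron 1 region is printed, with 1 E-box CAGCTG.
Abat chr16:8540956-8541125: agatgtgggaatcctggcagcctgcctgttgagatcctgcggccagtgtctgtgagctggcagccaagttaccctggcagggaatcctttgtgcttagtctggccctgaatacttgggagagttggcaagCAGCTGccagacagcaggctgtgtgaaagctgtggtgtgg

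**Figure D3:**
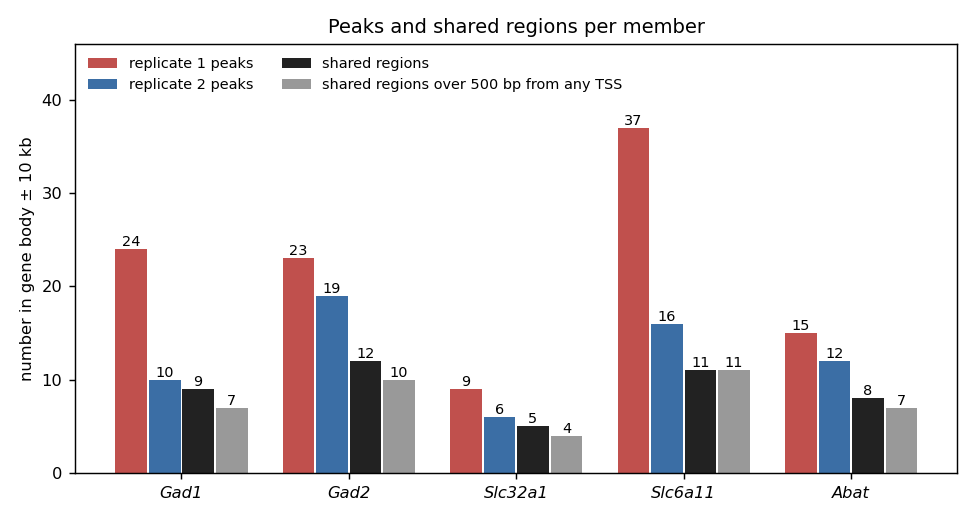
Number of peaks of replicate 1, peaks of replicate 2, shared regions and shared regions over 500 bp from any TSS in the domains of the 5 genes. Replicate 1 had more peaks than replicate 2 at each gene, for example 23 against 19 at Gad2 and 37 against 16 at Slc6a11.

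Summed over the 5 domains there were 108 peaks of replicate 1, 63 of replicate 2 and 115 merged regions. Of these regions 45 were shared, against 74833 of 260777 in the whole lists, while 60 were in replicate 1 alone and 10 in replicate 2 alone. Of the 45 shared regions 39 were distal, against 50993 of 74833 in the whole lists. Another 5 lay at an own TSS and 1 at the TSS of Actr5, the only other protein-coding gene starting in any of the 5 domains. The non-coding genes and pseudogenes starting there were Gad1os at Gad1, the miRNA genes Gm23636 and Mir3967 at Gad2, Gm14204 and the antisense Gm14205 at Slc32a1, Gm8132 at Slc6a11, and Gm22137, Gm49549 and Gm7541 at Abat. By the main transcripts, 25 were intronic, 11 upstream, 6 downstream and 3 in exons. Replicate 2 peaks in these domains overlapped a replicate 1 peak in 82.5% of cases (95% Wilson interval 71.4 to 90.0, counting error only), against 64.6% of all its peaks. For replicate 1 the share was 43.5% (34.6 to 52.9), against 33.5%. Both intervals treat the peaks as independent, although they cluster in 5 domains, so they are too narrow to serve as a test against the whole lists. Replicate 1 signals had a median of 59 in shared regions and 43.5 in regions of replicate 1 alone. In replicate 2 these were 22 in shared regions and 19.5 in its own.

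A longer domain can hold more regions, and the median domain of the 5 genes was 91.7 kb, against 37.4 kb over all protein-coding genes, though that of Slc32a1 was only 25.0 kb. Per 100 kb, Slc32a1 had 20.0 shared regions, above 94.3% of all genes. Gad1 and Gad2 each had 13.1, above 84.0% and 84.1%. Slc6a11 had 7.93 (above 66.2%) and Abat 6.24 (above 57.3%). The median over the 5 genes was 13.1 per 100 kb, beside 4.99 over all genes, and for distal shared regions it was 10.2 beside 2.07. In replicate 1 peaks the medians were 26.7 and 12.5 per 100 kb, and in replicate 2 peaks 14.5 and 7.52. The order of the densities placed Slc32a1 first and Abat last, with Gad1 and Gad2 level. At Slc32a1 the Actr5 promoter is 1 of the 5 regions counted, and only 1 of the 5 lies in the gene body. Genes of like domain length were not compared.

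Within 500 bp of their TSSs, promoter signals were low at all of these genes but Abat. Among the 15105 genes with a promoter peak in replicate 1, where the median of the highest promoter signal was 115, Gad1 stood at 65, above 15.7% of them. Gad2 stood at 71 (above 18.3%), Slc6a11 at 75 (20.0%), Slc32a1 at 78 (21.6%) and Abat at 123 (61.7%). In replicate 2, with a median of 55 over 13733 genes, Gad1 had 25 (above 12.3%), Gad2 27 (14.4%), Slc6a11 23 (10.4%) and Abat 55 (49.8%). These 4 low genes thus ranked above at most 21.6% of the genes in any library where they had a peak. The Gad1 region with 89 and 49 lay 777 bp from an own TSS, outside the window of 500 bp. Promoter signals were not ranked with a wider window. For Gad1, Gad2 and Slc6a11 the highest peaks of the libraries were at different places, so that each pair of signals is not of 1 site. The genes most alike to Gad1, by the summed difference of signal percentiles in both libraries over 13561 genes compared, were Cd83, Ggact, Gm10645 and Prelp, all at 65 and 25, and Asxl3 at 64 and 25. For Gad2 they were Galm and Tead3, at 71 and 27, and Cfap157, Nudt14 and Vstm4, at 72 and 27.

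The starts of these genes were rich in G and C. In the 500 bp on each side of the main start, GC content was 58.2% at Gad1, 60.9% at Gad2, 65.6% at Slc32a1, 66.9% at Slc6a11 and 60.5% at Abat, all above the median of 55.2% over all genes. The ratio of observed to expected CpG dinucleotides, a measure of CpG islands, was 0.678, 0.635, 0.76, 0.759 and 0.558 in the same order, with a median of 0.571 over all genes. Genes of the same CpG decile (all genes sorted by this ratio and divided into 10 equal classes) as Slc32a1 and Slc6a11 had a shared promoter region in 93.1% of cases and median promoter signals of 123 and 60. In the deciles of Gad1 and Gad2 these shares were 90.9% and 86.2%, with medians of 120 and 57, and of 114 and 52. Gad1, Gad2, Slc32a1 and Slc6a11 therefore lay below the median of their own CpG decile in every library where they had a promoter peak, and Abat, at 123 and 55 against 97 and 41, lay above it. The decile is that of the main start, while the signal is the highest near any annotated start of the gene. For Gad1 in replicate 2 that signal, 25, came from the region at 4.11 kb, and no replicate 2 peak lay at the main start.

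**Figure D4:**
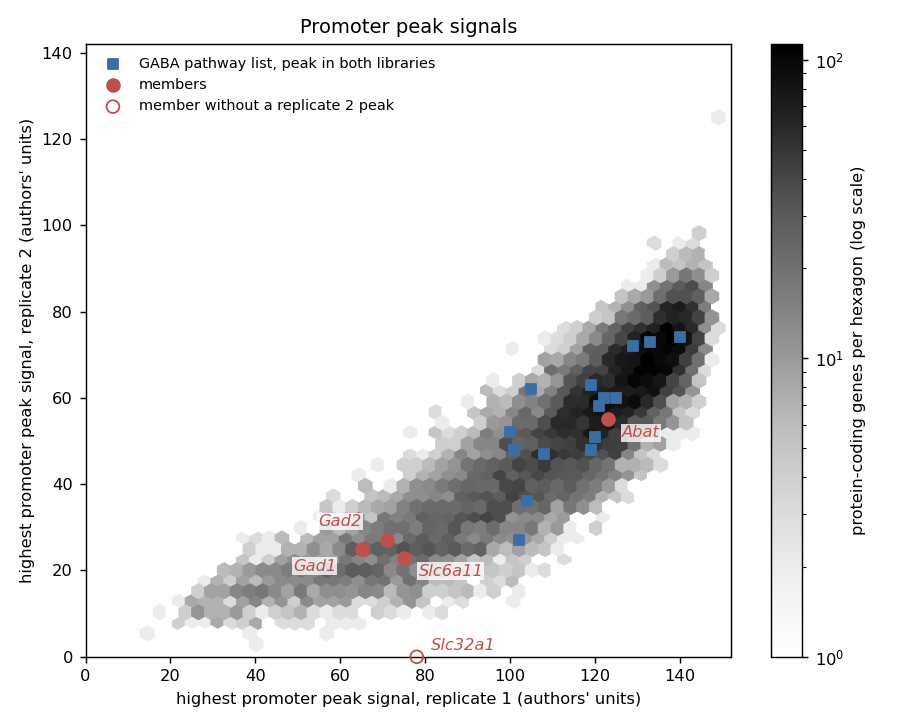
Highest signal of a promoter peak in replicate 1 (x axis) and replicate 2 (y axis), in the authors' units, for all protein-coding genes with one in each (grey hexagons, shaded by the number of genes on a log scale). Circles are the 5 genes, with Slc32a1 drawn open at 0 because replicate 2 had no peak there. Squares are the genes of the GABA pathway list with a promoter peak in each library. Abat sits among the squares, and the other circles lie to the left of every square. The 3 list genes with a peak in replicate 1 alone (signals of 26 to 35) are not drawn and would lie to the left of all circles.

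The central 150 bp of the 39 shared distal regions were searched on both strands for 11 further motifs. CAGCTG, an E-box read by basic helix-loop-helix factors, was in 13 (33.3%), against 14.2% of all shared distal regions, and 7 of the 13 were in Slc6a11. Another E-box, CATCTG, was in 2 (5.13%), both at Abat, against 15.3%. The homeodomain core TAATTA was in 2 (5.13%), against 4.06%. The motif of GATA factors, searched as GATAAG, was in 2, against 3.3%, and GGGCGG was in 2, against 6.64%. AACAAT (SOX factors), TATAAA and GTTGCCAT were each in 1 (2.56%), against 6.39%, 5.36% and 3.65%. TGACGTCA, TGACTCA and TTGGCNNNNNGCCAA were in 0 regions, against 0.343%, 2.78% and 0.129%. These are descriptions of letters in a window and say nothing of what binds there. In the RefSeq promoter windows, from 250 bases before to 50 after the start, 4 of the 5 genes were matched (not Abat). GGGCGG was found at Gad1 and at Slc6a11, which had 4 matches, against 35.7% of 32851 windows. CATCTG was found at Gad2 (17.2% of windows) and TATAAA at Gad1 (13.6%).

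The rest of the GABA pathway was described by a list of 20 genes, of which 15 had a shared promoter region (75.0%), beside the background of 61.0% given above. Replicate 1 had a promoter peak at 18 of them and replicate 2 at 15. The median number of shared regions per domain was 4, or 7.53 per 100 kb. Among transporters that take up GABA or betaine, Slc6a13 had a promoter signal of 35 in replicate 1 alone and Slc6a12 had no promoter peak. Among the genes that supply the precursor glutamate and glutamine, those with a shared promoter region included the glutaminase gene Gls2 (119 and 63), glutamine synthetase Glul (140 and 74), and the amino acid transporters Slc38a1 (121 and 58), Slc38a2 (108 and 47) and Slc38a3 (102 and 27). Slc38a5 had none.

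Pdxk, a kinase that helps to make the decarboxylase's cofactor pyridoxal phosphate, had one, with 119 and 48. So had the 3 genes that the list groups under breakdown. They were Aldh5a1, which oxidises succinic semialdehyde (105 and 62), glutamate dehydrogenase Glud1 (125 and 60) and Akr7a5, which reduces succinic semialdehyde (122 and 60). Of the genes of other routes to GABA, Aldh9a1 had a shared promoter region (100 and 52), while Maob (26) and Aldh1a1 (33) had a peak in replicate 1 alone. The metabotropic GABA receptor genes had 120 and 51 at Gabbr1 and 104 and 36 at Gabbr2, which had 20 shared regions in its domain. All 15 genes of the list with a shared promoter region had replicate 1 signals above those of Gad1, Gad2, Slc32a1 and Slc6a11. Of the 15, 9 were above 115, the median of all genes with a promoter peak. These 15 were picked by a shared promoter region, which Slc32a1 and Slc6a11 themselves lacked. The 3 list genes with a promoter peak in replicate 1 alone, Slc6a13 (35), Aldh1a1 (33) and Maob (26), were below every member.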

How the data were processed

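Peaks and hotspots came as separate lists for each library. According to the notes deposited with them, the authors made each list from the filtered alignment of 1 biological replicate on mm10. The aligner and the caller were not given in the sources used here. The signal deposited by the authors with every peak is undefined and was not scaled between libraries, so it only ranked and described peaks of the same list. For hotspots the authors deposited a −log10 q value, with 100 as its highest value, and a score that was not used.

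From the 228440 peaks of replicate 1, 215 off chromosomes 1 to 19, X and Y and 22 duplicate intervals were removed. From the 122838 of replicate 2, 221 and 24 were removed. Read totals are unknown, so the number of peaks is the only measure of yield, and intervals cover counting error only. Gene models were GENCODE M21, and sequence was RefSeq's GRCm38.p6.

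Peaks were merged, assigned and ranked with Python 3.11.15, NumPy 2.4.6, pandas 2.3.3 and SciPy 1.17.1. The scripts were tested on simulated lists. With 1 group and 2 libraries no test was made. Members are given beside all 21938 protein-coding genes.

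The genes and lists were chosen with earlier results of these data known. Named regions are every promoter region and, per gene, the 3 shared distal regions with the highest product of signal percentiles, with the other shared regions given in brief. Pathway and marker genes come from lists, of which some members are counted but not reported here by name, and alike genes are the 5 nearest to Gad1 and to Gad2 in promoter signals. The alternatives were a stricter overlap, the stronger 50% of peaks, a shortened replicate 1 list, hotspots, each library alone, other promoter windows and other domains.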

Additional observations from a re-analysis of the deposited data

How the results depend on the processing

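With the promoter window at 100 or 1000 bp, the stronger 50% of each list or replicate 1 shortened to the length of replicate 2, the genes with a shared promoter region numbered 3 of 5. They numbered 2 with an overlap of 50% or with the annotated 5′ end alone, and 4 with hotspots. Counted in 1 library at a time, the genes with a promoter peak were 4 to 5, the pathway genes 15 to 18, the regions in the domains 63 to 108 and the distal ones 55 to 90. The upper value of each is the count without replicate 2. The 45 shared regions became 28 with the stronger 50% of each list and 72 with a flank of 50 kb, and the 39 distal ones became 22 and 60. The 108 replicate 1 peaks became 65 with the stronger 50%, 67 in the shortened list and 169 with a flank of 50 kb, and the 63 replicate 2 peaks became 98 with that flank. These alternatives change how much sequence or how many peaks are counted. Of 47 alternative values of these counts, 36 stayed within 1.5 times the main count, and of 190 values for single genes 137 did. Gad2 went from 12 shared regions to 5 with the stronger 50% or the shortened list. With the gene body only, the 45 shared regions became 32, those of Gad2 became 6 and those of Slc32a1 went from 5 to 1. No paired analysis was possible because there is only 1 group. The unknown read depth limits every absence: a site missing from replicate 2, such as the Slc32a1 promoter, was not detectable in that list and is not shown to be closed.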

Other observations

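Genes that mark other transmitters were described in the same way from a list of 14. Replicate 1 had a promoter peak at 9 of them, replicate 2 at 5, and 4 had a shared promoter region, fewer in proportion than over all protein-coding genes (61.0%). The 4 were Slc17a6, the vesicular glutamate transporter typical of subcortical neurons (102 and 36), the glycine transporters Slc6a5 (62 and 23) and Slc6a9 (92 and 37), and Tph2, which starts serotonin synthesis in the brain (108 and 32). Slc18a2, the vesicular monoamine transporter, had a peak in each library (38 and 14) that did not overlap. Slc17a8 (44), Slc18a3 (36), Slc6a3 (31) and Slc6a4 (30) had a peak in replicate 1 alone. Slc17a7, Chat, Th, Dbh and Slc6a2 had no promoter peak in either library. The median number of shared regions per domain was 3 over this list, or 5.01 per 100 kb, beside 4.99 over all genes.

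Transcription factors linked to GABAergic neurons had promoter signals in the range of Gad1 and Gad2 or below. Dlx1, typical of forebrain GABAergic neurons, had 64 and 24 and Dlx2 had 49 and 22. Tal2 had 63 and 27 and Tal1 had 40 and 25, and these 4 had a shared promoter region. Gata2, which directs midbrain GABAergic fate, had 45 and 14 at peaks that did not overlap, and Gata3 had a peak in replicate 2 alone (17).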
